A study of Homo sapiens with 6 samples.

Results

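NEDD9, BCAR1, EFS and CASS4 are the 4 genes of the CAS scaffold family, and their H3K27ac peaks were described in SU-CCS-1, a line established from human clear cell sarcoma (CCS) with the fusion gene EWSR1::ATF1 (EA1). A peak belonged to a gene when it overlapped the GENCODE version 44 gene body or lay within 100 kb of it. By this rule 46 of the 30784 peaks in the merged list were kept, 25 of them in a gene body and 21 in the flanks. A promoter peak was one at most 3 kb from a start site of the gene, whichever transcript that start belonged to.

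CAS proteins are docking scaffolds without enzyme activity. An SH3 domain at the amino end binds focal adhesion kinase, SRC family kinases phosphorylate the tyrosines of the substrate domain, and the phosphorylated sites recruit CRK adaptors and, through them, activators of the small GTPases RAC and RAP. The carboxyl end binds adaptors of the NSP family. Through these contacts the family links integrin adhesion to the cytoskeleton and to cell movement. NEDD9, also called HEF1 or CAS-L, moves to the centrosome at mitosis and activates Aurora A kinase. BCAR1, or p130Cas, is the broadly expressed founding member. EFS, or Sin, was found as a FYN-binding substrate, and CASS4, or HEPL, is the most divergent member.

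The series comprised 3 H3K27ac ChIP replicates and 3 inputs of the same line and genotype, with no treatment and no second genotype to compare. H3K27ac, acetylation of a lysine in the tail of histone H3, is found at active promoters and enhancers, and input is sheared chromatin sequenced without immunoprecipitation. The merged list gave each peak's position and name only, so no value below has a replicate error and no group comparison was possible. Its peaks measured 400 to 35690 bases with a median of 1060, and 11928 were distal, which means beyond 3 kb of every annotated start site. The depth behind a peak is unknown, and where no peak is listed the signal fell short of the calling cutoff or the peak was filtered out, which is not the same as lacking the mark. The line's label was checked against marker genes. Promoter peaks were listed at SOX10, MITF, PMEL, MLANA and S100B, which is 5 of 6 melanocytic and CCS markers, with TYR the exception. Across protein-coding genes the share with a promoter peak was 63.4%. A peak lay over the canonical start of 2 of the 6, SOX10 and MITF, and at MLANA the nearest peak was 4.51 kb from it. No promoter peak was listed at the 10 markers of skeletal muscle, blood, epithelium and endothelium. The blood marker PTPRC held 1 peak in its body, over 0.546% of the gene.

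The start sites of the family differ in their sequence, and 4 of them are shown, 2 with a peak and 2 without. Each is a RefSeq promoter of 300 bases on GRCh38.p14, from 250 bases before the start to 50 after it, 5′ to 3′, with CpG dinucleotides in capitals. Of the RefSeq entries, 3 promoters matched NEDD9, 5 matched BCAR1, 1 matched EFS and none matched CASS4. All 9 were identical to the hg38 sequence.
NEDD9 outer start, chr6:11382299-11382598, minus strand: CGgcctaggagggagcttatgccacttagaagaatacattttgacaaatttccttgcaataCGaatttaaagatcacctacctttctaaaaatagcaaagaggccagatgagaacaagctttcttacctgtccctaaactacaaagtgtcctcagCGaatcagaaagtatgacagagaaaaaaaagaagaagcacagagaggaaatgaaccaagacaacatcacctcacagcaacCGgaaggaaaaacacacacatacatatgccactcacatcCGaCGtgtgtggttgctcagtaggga
NEDD9 internal start, chr6:11232619-11232918, minus strand: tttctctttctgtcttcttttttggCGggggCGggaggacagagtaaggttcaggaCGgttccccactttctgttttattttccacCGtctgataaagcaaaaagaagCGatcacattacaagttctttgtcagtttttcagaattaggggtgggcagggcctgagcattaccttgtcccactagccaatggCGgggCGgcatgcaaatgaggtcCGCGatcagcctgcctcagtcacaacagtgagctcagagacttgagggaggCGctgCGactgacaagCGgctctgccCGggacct
BCAR1 upstream start, chr16:75265958-75266257, minus strand: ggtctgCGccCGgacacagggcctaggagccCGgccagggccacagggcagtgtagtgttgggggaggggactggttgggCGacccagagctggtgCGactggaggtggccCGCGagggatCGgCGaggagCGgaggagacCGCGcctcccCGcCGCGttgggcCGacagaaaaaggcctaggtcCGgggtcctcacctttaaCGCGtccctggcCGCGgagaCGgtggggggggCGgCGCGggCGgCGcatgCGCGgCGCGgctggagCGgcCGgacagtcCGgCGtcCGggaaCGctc
EFS start, chr14:23365123-23365422, minus strand: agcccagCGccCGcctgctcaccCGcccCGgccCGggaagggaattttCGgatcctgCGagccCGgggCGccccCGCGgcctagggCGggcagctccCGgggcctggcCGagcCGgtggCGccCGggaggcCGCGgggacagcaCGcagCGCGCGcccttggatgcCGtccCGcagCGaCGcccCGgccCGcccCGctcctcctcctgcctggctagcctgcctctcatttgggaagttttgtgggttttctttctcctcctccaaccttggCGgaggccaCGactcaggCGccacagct
The NEDD9 outer promoter was the poorest of these in CpG, with 6 CpGs, 42.0% GC and a CpG ratio of 0.46. The CpG ratio is the observed number of CpGs over the number that the C and G content would give. The NEDD9 internal promoter had 13 CpGs, 52.7% GC and a ratio of 0.63. The BCAR1 upstream promoter and the EFS promoter were dense in CpG, with 37 CpGs and a ratio of 0.93 for the former and 33 CpGs and a ratio of 0.82 for the latter. A peak overlapped the NEDD9 internal promoter and the BCAR1 upstream promoter, and none overlapped the NEDD9 outer promoter or the EFS promoter. For scale, a peak overlapped 78.0% of the 12367 RefSeq promoters of protein-coding genes with at least 55% GC and a CpG ratio of at least 0.6. Of the 9246 other promoters, 24.0% overlapped one. EFS was thus among the promoters past both limits without a peak. The internal NEDD9 promoter passed the limit on the CpG ratio and missed that on GC, and was among the other promoters with a peak. The other 4 BCAR1 promoters were poor in CpG and were divided, with a peak over those of CpG ratio 0.37 and 0.42 and none over those of 0.22 and 0.26. The remaining NEDD9 promoter, a second one at the outer end, had a ratio of 0.53 and no peak.

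NEDD9 and BCAR1 carried H3K27ac peaks in the gene body and at their promoters, and EFS and CASS4 carried neither. A promoter peak was therefore listed for 2 of the 4 members, beside 63.4% of the 20015 protein-coding genes (12691). A peak lay over the canonical start site of the same 2 genes, beside 53.5% of protein-coding genes, and in the body of the same 2, beside 64.7%. EFS and CASS4 had no peak within 10 kb of the canonical start, as did 35.4% of protein-coding genes. With 4 members these shares are a description of the family and not a departure from the background. The windows held 25 peaks at NEDD9, 7 at BCAR1, 9 at EFS and 5 at CASS4, and all 14 peaks of the last 2 genes were in the flanks. These counts depended on the peaks and flanks admitted. With the widest 50% of peaks they were 13, 3, 5 and 3 in the same order, and with flanks of 50 kb they fell to 3 at EFS and 3 at CASS4.

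**Figure D1:**
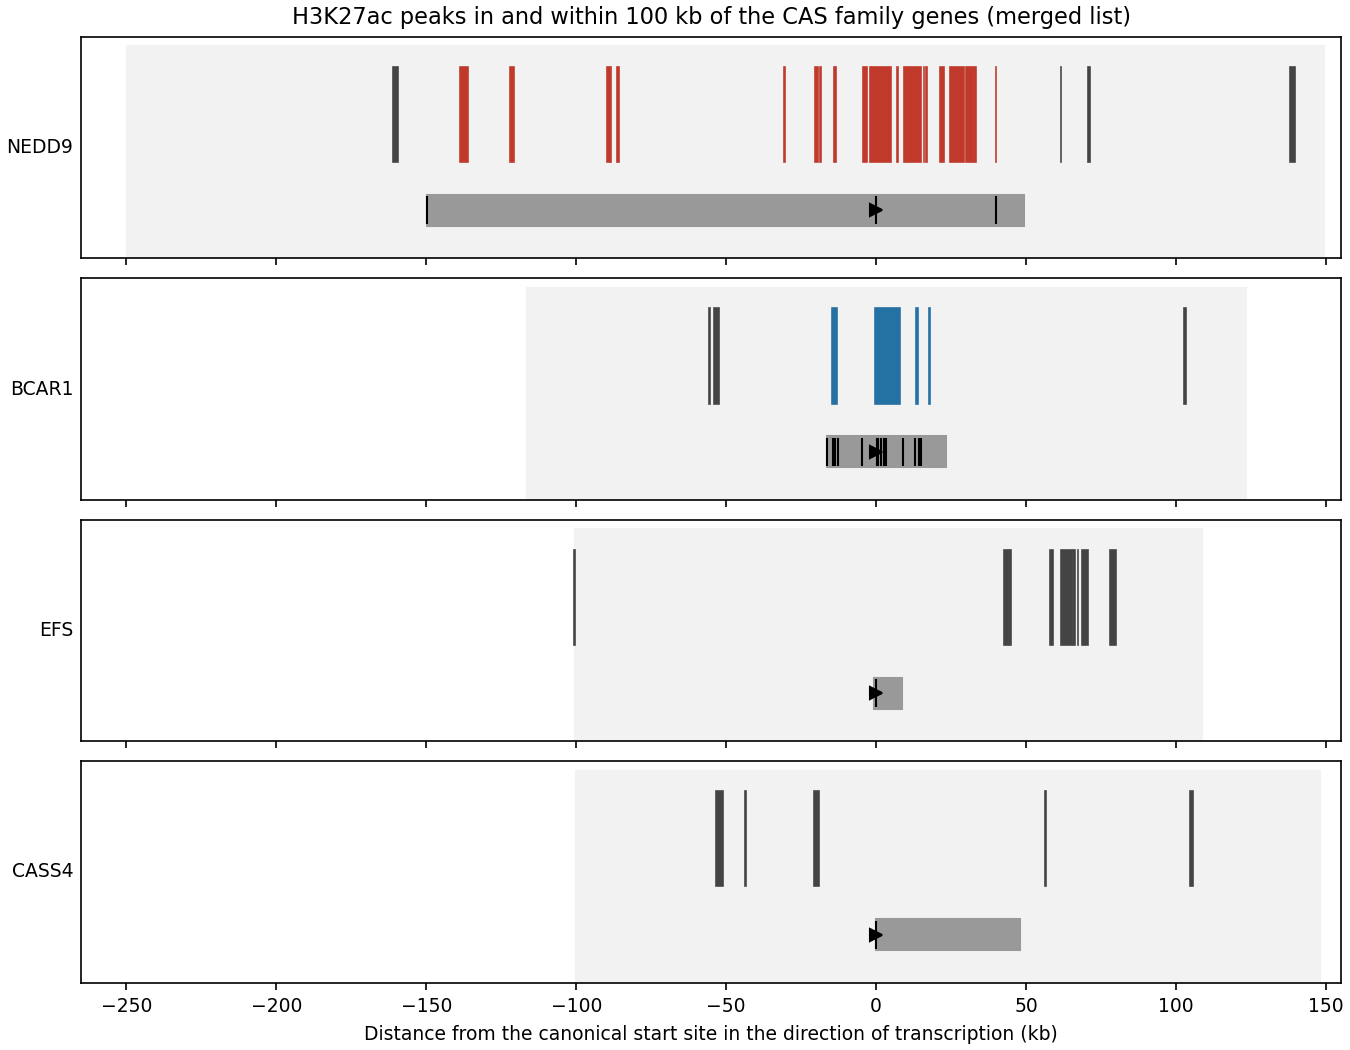
H3K27ac peaks in the windows of the 4 CAS family genes, against distance in kb from the canonical start site in the direction of transcription. Grey bars are gene bodies with black ticks at transcript start sites and an arrowhead at the canonical one, light grey shading is the window of the body and 100 kb on each side, coloured blocks are the peaks overlapping the body and dark blocks those in the flanks. NEDD9 has 21 body peaks and BCAR1 has 4, and the bodies of EFS and CASS4 are empty.

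NEDD9 (ENSG00000111859.17) spans 199 kb on the minus strand of chromosome 6, from 11183298 to 11382348 on hg38, and had the most peaks in the family. Its body held 21 peaks with a summed width of 37.9 kb, which is 19.0% of the gene. By bases in peaks NEDD9 ranked 32 among the 20015 protein-coding genes, and 28 among the 3666 genes with a body of at least 100 kb. The median protein-coding gene held 1 peak over 1.45% of its body, and the median gene of at least 100 kb held 1 peak over 0.718%. By percent of the body its rank was 1956 over all genes and 37 among the long ones. NEDD9 had drawn attention in these same data before, so its ranks describe the gene and are not independent evidence for it.

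**Figure D2:**
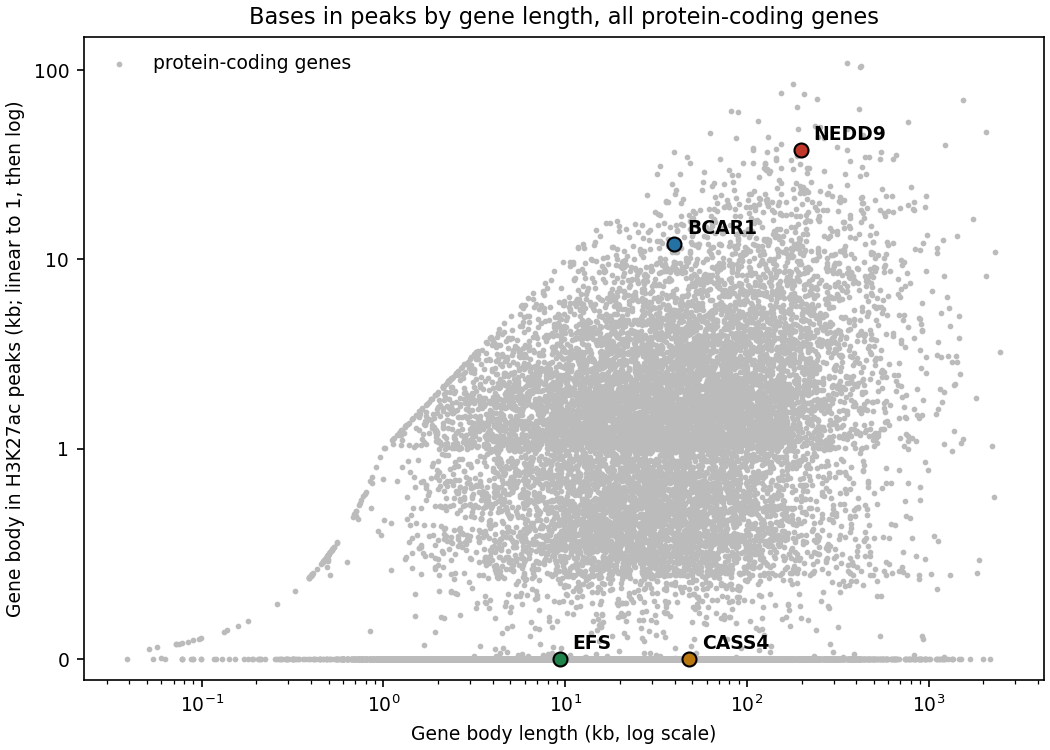
Kilobases of each gene body inside H3K27ac peaks (vertical axis, linear to 1 and logarithmic above) against gene body length in kb (logarithmic), for 20015 protein-coding genes in grey and the 4 CAS family genes in colour. NEDD9 (37.9 kb in peaks) and BCAR1 (12.0 kb) lie near the upper edge for genes of their length, and EFS and CASS4 lie on the line at 0.

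At NEDD9 a peak covered the internal start and none covered the outer one. Of its 16 annotated transcripts, 12 start at the outer end between 11382272 and 11382348. No outer start was inside a peak, and the nearest peak lay 9.84 to 9.92 kb away, on the upstream side. The canonical transcript starts further in at 11232668, 149.68 kb from the outermost start, together with 2 others between 11232658 and 11232682. All 3 of these starts were inside 1 peak of 7.35 kb, from 11227831 to 11235180, which reached 2.51 kb upstream and 4.84 kb downstream of the canonical start. The remaining start, that of a transcript without a coding frame, lay at 11192567, only 4 bases outside a peak of 610 bases. Counting protein-coding transcripts alone, 3 of 7 started in a peak.

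The peak over the internal start was wide for a promoter peak. It ranked 242 of all peaks by width, and 0.786% of peaks were at least as wide. Taking each gene's widest promoter peak, 1.43% of the 12691 genes that have one matched or exceeded it. Broad calling joins neighbouring enriched stretches, and for this reason a width reflects signal height and the joining rule as well as the extent of the mark.

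The NEDD9 peaks lay on both sides of the internal start. By peak midpoint 11, the peak over that start included, lay in introns of the canonical transcript, with 6 in intron 1, 4 in intron 2 and 1 in intron 3, and 10 lay between the canonical and the outer start. The span of the canonical transcript, 49.4 kb long, was 47.3% in peaks. The 150 kb from the outer start to the canonical start were 9.69% in peaks. After the peak over the internal start, the widest were a 5.23-kb peak in intron 2 (11203221 to 11208450) and a 4.34-kb peak in intron 1 (11217551 to 11221890), centred 26.83 and 12.95 kb downstream of the start. A peak of 2.55 kb (11200461 to 11203010) lay 210 bases beyond the intron 2 peak. The largest peak toward the outer end measured 2.95 kb (11368801 to 11371750) and was centred 137.61 kb upstream of the canonical start. Another 10 of the 21 body peaks measured 1 kb or less, down to 410 bases. In all, 3 body peaks were promoter peaks of NEDD9 and 17 were distal. Another 1 lay within 3 kb of the start of the lncRNA ENSG00000290062 and overlapped the end of that gene.

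**Figure D3:**
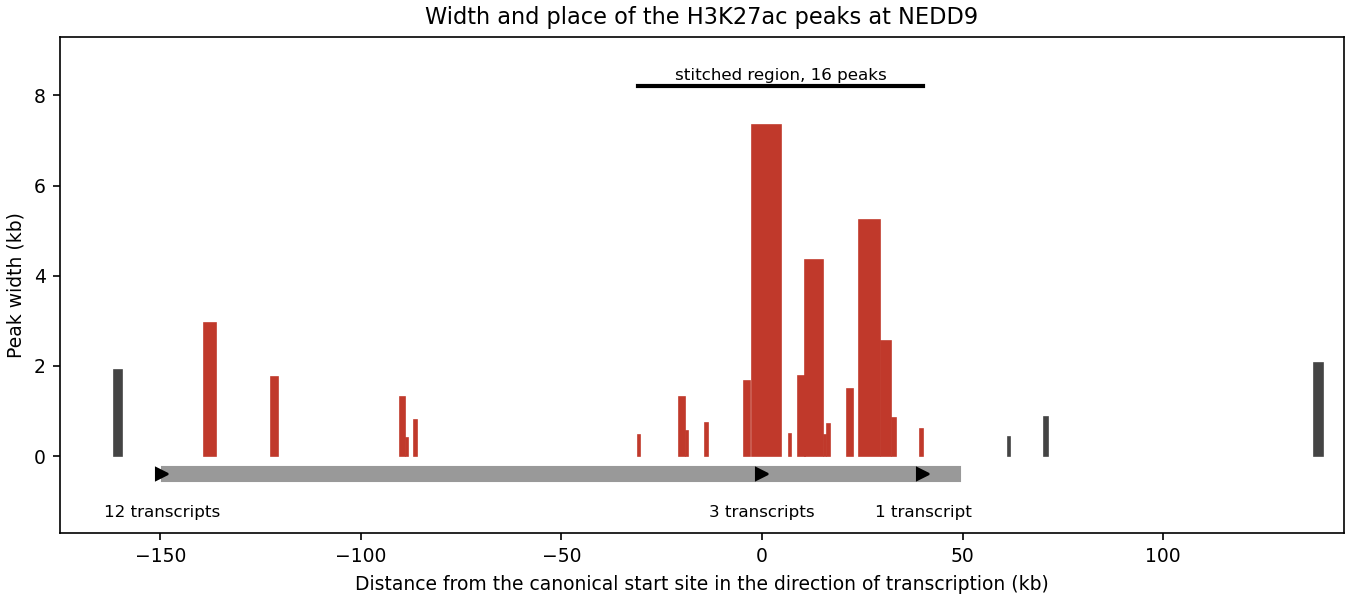
Width in kb of each H3K27ac peak at NEDD9 (height of the block) against its place in kb from the canonical start site in the direction of transcription, drawn to scale, with body peaks in red and flank peaks in dark grey. The grey bar is the gene body, arrowheads are the clusters of start sites with their number of transcripts, and the black line is the stitched region of 16 peaks. The widest peak, 7.35 kb, covers the internal start of 3 transcripts, and no peak covers the outer start of 12.

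Neighbouring peaks were joined at the stitching distance that the study used to build super-enhancers (SEs), which are clusters of enriched intervals. At NEDD9 this joined 16 peaks from 11192571 to 11263590, which together made 30.6 kb in a span of 71.0 kb, so 43.1% of the span was in peaks. The 3 widest peaks held 55.2% of that summed width, and the region held 80.9% of all bases in peaks in the gene. Its 15 gaps measured 50 to 9810 bases with a median of 1620, and 7 were 1 kb or shorter. By summed peak width the region ranked 47 of 17049, or in the top 0.276%, and with a joining distance of 25 kb it ranked 78. The other NEDD9 peaks formed small regions, with a summed width of at most 2.95 kb and a best rank of 3774. This is a ranking of peak width, and it is not the ranking by reads that defines an SE.

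**Figure D4:**
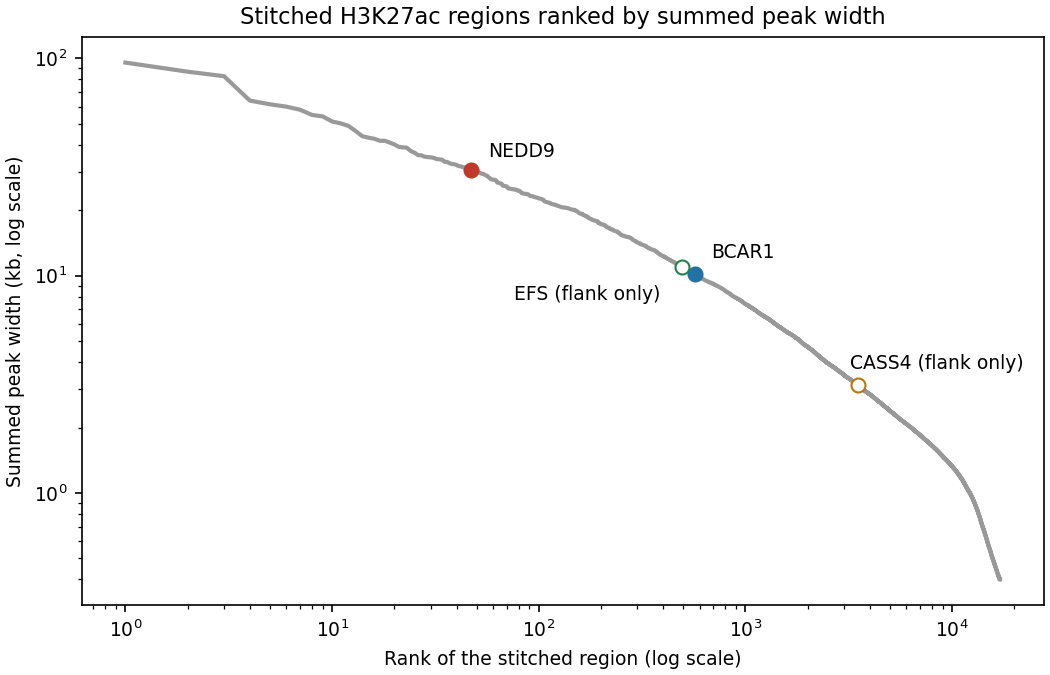
Summed peak width in kb of the 17049 stitched H3K27ac regions against their rank, both on logarithmic axes, with the top-ranked region of each CAS family gene marked. Filled circles are regions that overlap the gene body, at rank 47 for NEDD9 (30.6 kb) and 569 for BCAR1 (10.2 kb). Open circles are regions in the flanks only, at rank 491 for EFS and 3498 for CASS4.

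The window of NEDD9 held 2 other protein-coding genes, beside 4 at BCAR1, 11 at EFS and 7 at CASS4. Its flanks held 4 peaks, beside 3 at BCAR1, 9 at EFS and 5 at CASS4. Of the 4 flank peaks, 1 of 2.06 kb covered the start of SMIM13, a small membrane protein gene, and 1 of 420 bases lay near the start of the lncRNA ENSG00000247925, which runs antisense into NEDD9. The other 2, of 860 bases downstream and 1.92 kb upstream, had no start site within 3 kb. ERVFRD-1, the placental envelope gene syncytin-2, had no promoter peak. Since 3 annotated lncRNAs overlap the NEDD9 body on the opposite strand and H3K27ac has no strand, peaks in the body cannot be assigned to 1 of the overlapping genes.

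The genes whose bodies looked most like NEDD9 were chosen by distance over 3 standardised measures, namely length, number of peaks and percent in peaks, across 1 merged list. The closest was ADGRD1, an adhesion G protein-coupled receptor, at a distance of 0.041 SD, with 21 peaks over 18.9% of 188 kb. It was followed by the locus ENSG00000258539 (19 peaks, 19.1%), the transcriptional coregulator ZMIZ1 (23 peaks, 17.9%), the lipid kinase PIP4K2A (23 peaks, 16.8%) and MBP, myelin basic protein (22 peaks, 16.3%). The likeness is one of peak pattern only.

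BCAR1 (ENSG00000050820.17) spans 39.9 kb on the minus strand of chromosome 16, from 75228181 to 75268053, and had the widest promoter peak of the family. Its 4 body peaks measured 680, 990, 8480 and 1850 bases, all 4 of them promoter peaks, and made up 12.0 kb or 30.1% of the gene. By bases in peaks BCAR1 ranked 373 of 20015. The 8.48-kb peak, from 75243751 to 75252230, ranked 156 by width, and 0.507% of all peaks were at least as wide. Among genes with a promoter peak, 0.993% had one as wide or wider. The canonical start at 75251624 lay 0.606 kb inside its upstream edge, and the remaining 7.87 kb extended downstream.

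BCAR1 differed from NEDD9 in how its starts related to the peaks. Its 22 transcripts fell into 14 clusters of start sites, and 15 transcripts started inside a peak, 8 of them in the 8.48-kb peak. Of the protein-coding transcripts, 12 of 17 did so. The CpG-dense upstream promoter shown above was covered by the 1.85-kb peak from 75264771 to 75266620. The outermost start, at 75268053, was 1.43 kb from that peak and outside it. With starts of protein-coding transcripts alone, 2 of its 4 body peaks still qualified as promoter peaks, as did 2 of the 3 at NEDD9.

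All 3 flank peaks of BCAR1 were near start sites of other genes. CFDP1, a craniofacial development protein gene upstream, held 2 of them, of 1.93 kb and 470 bases, and ZFP1, a zinc finger gene downstream, held 1 of 750 bases. CTRB1 and CTRB2, the chymotrypsinogen genes of the pancreas, lie between BCAR1 and ZFP1 and had no promoter peak.

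EFS (ENSG00000100842.13) spans 9.35 kb on the minus strand of chromosome 14, from 23356403 to 23365752, and had no peak in its body. Its 3 transcripts start between 23365172 and 23365752, and the nearest peak was 42.4 kb from the canonical start. The stretch without a peak around EFS ran from 23322821 to 23465570, or 143 kb, and 13.9% of the gaps between neighbouring peaks in the list were at least as long. The same stretch holds SLC22A17, IL25, CMTM5 and the cardiac myosin heavy chain genes MYH6 and MYH7, so EFS shared its lack of peaks with the genes on both sides. Of its 9 flank peaks, 8 lay downstream within 3 kb of start sites of HOMEZ, PPP1R3E, BCL2L2, BCL2L2-PABPN1 or PABPN1. The widest, 3.83 kb from 23299861 to 23303690, lay near the starts of BCL2L2, a survival gene of the BCL2 family, HOMEZ and PPP1R3E. The remaining peak, of 810 bases, had no start site within 3 kb and was centred 100.80 kb upstream of the EFS start. Of the 11 other protein-coding genes in the window 5 had a promoter peak, beside 63.4% of all protein-coding genes.

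CASS4 (ENSG00000087589.17) spans 48.3 kb on the plus strand of chromosome 20, from 56412112 to 56460387, and likewise had no peak in its body. Its 5 transcripts start within 56412112 to 56412393, and the nearest peak was 19.0 kb upstream of the canonical start. That peak, of 2.19 kb from 56391071 to 56393260, covered the divergent starts of AURKA, the mitotic kinase that NEDD9 activates, and CSTF1, a cleavage factor for messenger RNA ends. The stretch without a peak around CASS4 ran for 75.0 kb, from 56393261 to 56468290, and held CASS4 as its sole complete protein-coding gene. Of all gaps between peaks 23.8% were at least that long. Downstream it ended at a peak of 770 bases at the start of RTF2, a replication fork gene. Of the 7 other protein-coding genes in the window 5 had a promoter peak, beside 63.4% of all protein-coding genes. They included FAM210B with a peak of 2.68 kb. Some shared a peak, AURKA with CSTF1 and FAM209A with RTF2, so the 5 genes are not separate observations.

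The peaks of NEDD9 and BCAR1 were searched on both strands for 3 of the motifs that the study examined. A loose form of the M-box of MITF family factors was searched as well. The TGA repeats that the study also examined were not searched here. The motifs were TGACGTCA, the ATF/CREB site, its flexible form TGANNTCA, which includes the former, the AP1 site TGAGTCA, and TCANGTGA for the M-box. TGACGTCA occurred once in the NEDD9 body peaks, in the 4.34-kb peak of intron 1, 12.34 kb downstream of the canonical start. Peaks within 10% of that width held the motif in 46 of 525 cases, or 8.76%. The site is shown with 3 of the 7 AP1 sites, the pair of the outer 2.95-kb peak and 1 of the pair in the intron 2 peak, each with 10 bases on either side on hg38, 5′ to 3′, with the motif in capitals.
NEDD9 intron 1 ATF/CREB site, chr6:11220320-11220347, plus strand: cgccgaatctTGACGTCAttcactttgc
NEDD9 intron 2 AP1 site, chr6:11207383-11207409, minus strand: tcctagacacTGAGTCAtcacaaatta
NEDD9 outer AP1 site, downstream of the pair, chr6:11368917-11368943, minus strand: gaatgttacaTGAGTCAacacacacac
NEDD9 outer AP1 site, upstream of the pair, chr6:11368946-11368972, minus strand: gaaggttttaTGAGTCAatggatgatt
The 2 outer sites lie 29 bases apart, start to start, and are on the strand of the gene. The other AP1 sites were a second 1 in the intron 2 peak, 2 in the peak of 1.76 kb from 11353351 to 11355110 and 1 in the peak of 1.32 kb from 11251981 to 11253300. The 7.35-kb peak over the internal start held none, whereas 70.5% of the 139 peaks of like width held at least 1.

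The flexible motif was frequent in the NEDD9 peaks. TGANNTCA occurred 33 times in 12 of the 21 body peaks, or 8.71 times per 10 kb, beside 4.66 per 10 kb in all peaks and 6.42 in all distal peaks. The 12 peaks are 57.1% of the body peaks, and the motif was in 40.8% of all peaks and 45.6% of distal peaks. In the intron 2 peak of 5.23 kb it occurred 10 times, beside a mean of 2.52 over 298 peaks of like width, and in the 7.35-kb peak 7 times, beside a mean of 3.35. These counts make up a large part of the 33. The 4.34-kb peak held 4 (mean 2.15), and the 1.77-kb and 1.66-kb peaks held 2 each (means 0.711 and 0.656). Peaks of 1.76, 1.49 and 1.32 kb held 1 each, beside means of 0.704, 0.610 and 0.523. Below their means were the 2.55-kb peak with 1 (mean 1.11), the 2.95-kb peak with 1 (1.25) and the 1.31-kb peak with 0 (0.517). These comparisons cover only the body peaks wider than 1 kb. The 10 body peaks of 1 kb or less were not set beside peaks of like width, and most of them held no match. Of the 33 TGANNTCA matches, 4 overlap a TCANGTGA site. Without such matches the rate was 7.66 per 10 kb, beside 3.62 in all peaks and 4.88 in distal peaks. The internal promoter shown above contains 1 match, TGAGCTCA, whose last base is the start site, and 9.85% of the 21613 promoters of protein-coding genes held the motif. TGAGTCA stood at 1.85 per 10 kb at NEDD9, close to the 1.87 of distal peaks. TCANGTGA, with 9 sites, stood at 2.38 per 10 kb at NEDD9, beside 3.25 in all peaks and 4.51 in distal peaks. All 9 sites read TCAAGTGA or TCAGGTGA, and none was an M-box form. The BCAR1 peaks held no TGACGTCA, 4 TGANNTCA, 3 TGAGTCA and 3 TCANGTGA in 12.0 kb. The 3 TCANGTGA sites of BCAR1 all read TCAAGTGA. These counts describe letters in the sequence. Repeats were not masked, and binding was not measured here.

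Partners of the CAS proteins were taken from a list of 31 genes by role, of which 29 had a promoter peak (93.5%, beside 63.4% of protein-coding genes). Many of the listed genes are thought to be broadly expressed, but expression was not measured here. The share of the list was not tested. Among those with a promoter peak the median width of the widest was 1780 bases, beside 1600 for all such genes, and none of the 29 reached the 7.35 kb of NEDD9 or the 8.48 kb of BCAR1.

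All 6 kinases that phosphorylate CAS proteins had a promoter peak. FYN, a SRC family kinase, stood out in its body as well, with 19 peaks over 14.3% of 213 kb and a widest promoter peak of 4.08 kb. PTK2, the focal adhesion kinase, held 13 peaks over 3.28% of 344 kb. SRC, its relative LYN and the focal adhesion kinase homologue PTK2B held 1 body peak each. At PTK2B this peak was near an alternative start, 13.5 kb from the canonical one. ABL1 held 5.

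Of the 9 adaptors and effectors downstream of the phosphorylated sites, 8 had a promoter peak. DOCK1, the RAC activator that CRK recruits, held 18 peaks with 36.9 kb in its 547-kb body, close in bases to the 37.9 kb of NEDD9. As a share of the body that was 6.75%, beside 19.0% at NEDD9. RAPGEF1, an activator of RAP, held 12 peaks over 12.3% and had the widest promoter peak of all partners at 4.78 kb. CRKL had a promoter peak of 3.09 kb and CRK one of 1.56 kb. The remaining ones with a promoter peak, NCK1, GRB2, RAC1 and RAP1A, ranged from 1.14 to 1.97 kb. ELMO1, the cofactor of DOCK1, had no peak in its 596 kb, and the nearest was 333 kb from its canonical start.

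Of the NSP family adaptors that bind the carboxyl end, BCAR3 held 10 body peaks with 14.6 kb and a promoter peak of 2.81 kb. SH2D3C had a promoter peak of 1.24 kb outside its body, and SH2D3A had none, with the nearest 26.1 kb away. The phosphatases PTPN12 and PTPN1, which remove phosphate from CAS proteins, had promoter peaks of 2.68 and 1.46 kb. All 5 adhesion partners, the adaptors PXN, ZYX, TRIP6 and VCL and the integrin subunit ITGB1, had promoter peaks of 1.24 to 2.35 kb, and PXN, or paxillin, held 7 body peaks over 14.1% of the gene. The mitosis and cytoskeleton genes AURKA, HDAC6, a tubulin deacetylase, and CTTN, or cortactin, had promoter peaks of 2.19, 2.45 and 2.36 kb. FZR1, an activator of the ubiquitin ligase of anaphase, had a promoter peak of 4.54 kb, the ubiquitin ligase ITCH one of 1.88 kb and the TGF-beta mediator SMAD3 one of 1.55 kb.

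**Figure D5:**
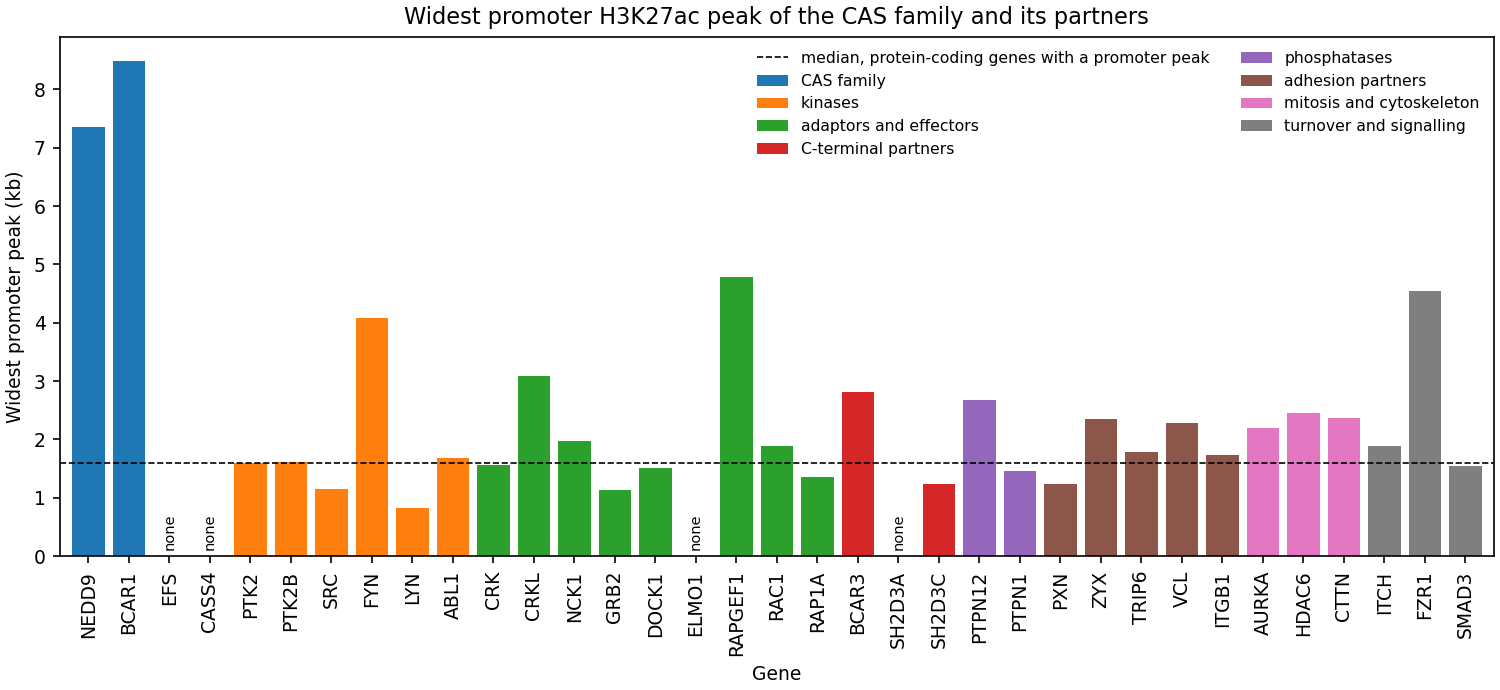
Width in kb of the widest promoter H3K27ac peak of each CAS family gene and each of the 31 partners, coloured by role, with the dashed line at the median of protein-coding genes that have a promoter peak (1600 bases). Bars start at 0 and genes without a promoter peak read none. NEDD9 and BCAR1 are taller than every partner, and EFS, CASS4, ELMO1 and SH2D3A have no bar.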

How the data were processed

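Chromatin of SU-CCS-1 cells was immunoprecipitated for H3K27ac in 3 replicates, with 3 inputs. Per the labels and the study's methods, reads were aligned by the authors to hg38 using BWA 0.7.10-r789, broad peaks were called with MACS2 2.2.6 over input, and unreliable regions were removed. The authors deposited 1 merged list of 4 columns (chromosome, peak start, peak end and name), without scores, counts or columns per replicate. How it was merged is not given in the sources used here, and whether replicates were separate cultures is not stated. Widths therefore carry no error, and no test over samples could be run. Starts were counted from 1, and no peak ran past a chromosome end. Genes came from GENCODE version 44 (20015 protein-coding genes), promoters from RefSeq and sequence from hg38, read with pysam 0.24.0, numpy 2.4.6 and pandas 2.3.3 in Python 3.11.15. Interval functions were tested on simulated data. Starts within 0.5 kb of each other formed a cluster. Members, partner and marker lists, motifs and the rule for like genes (the 5 nearest) were chosen with earlier results of these data known. All listed genes were reported.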

Additional observations from a re-analysis of the deposited data

How the results depend on the processing

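Of 46 alternatives, 24 left a value within its tolerance and 22 moved it. The tolerance differed between results, so these counts do not measure stability. For example, 9737 protein-coding genes beside 12691 counted as the same, and a NEDD9 rank of 34 beside 32 counted as moved. A promoter peak was listed for 2 members under every definition tried. Partners with one numbered 26 to 29, and protein-coding genes 9737 to 12691. With the widest 50% of peaks the windows held 13 peaks at NEDD9, 3 at BCAR1, 5 at EFS and 3 at CASS4. In gene bodies alone there were 4 at BCAR1, 0 at EFS and 0 at CASS4, and with flanks of 50 kb 3 at EFS and 3 at CASS4. The percent of the NEDD9 body in peaks was 15.9 with the widest peaks, 13.3 without its promoter peaks and 47.3 over the canonical transcript, and its rank by bases was 34 with the widest peaks and 26 without promoter peaks. The stitched NEDD9 region summed to 26.9 kb (rank 36) at a joining distance of 5 kb, 31.9 kb (rank 78) at 25 kb, 30.0 kb (rank 34) without peaks lying entirely inside 2.5 kb of a start and 24.4 kb with the widest peaks. By span it ranked 33. The cause of these moves was not tested, and the ranking by span changes the measure alone.

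No paired analysis was possible because no listed peak can be assigned to a replicate. Leaving out single replicates was not possible either. Peak widths without read counts leave the reliability of the narrow peaks unknown.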
